A study of Mus musculus with 19 samples.

Results

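The comparison set 10 of the 19 RNA-seq libraries of a mouse brain series against each other, all from SCA17 knock-in mice: 4 libraries of cerebellum, 3 of striatum and 3 of prefrontal cortex. They were chosen by the region and genotype in their labels. The striatum and the prefrontal cortex are called the forebrain here, and each forebrain region was given equal weight. The other 9 libraries, 3 from each region of wild-type (WT) mice, served as the control. The question was how far the cerebellum of the mutant mice keeps the genes that set it apart from the forebrain. Of 41128 genes in the count table, 16841 had enough counts to be tested.

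All mice were C57BL/6 and 3 months old, and no treatment is named. Both sexes were present by *Xist* and Y-linked counts, in unlike balance between the genotypes. Y-linked counts marked knock-in libraries 1 and 2 and WT library 1 in both striatum and prefrontal cortex. In the cerebellum they marked knock-in libraries 2 and 4 and WT library 3. *Xist* marked the remaining libraries. The SCA17 knock-in mice carry a *Tbp*-105Q allele in the germ line, a mouse *Tbp* gene whose polyglutamine tract is expanded. A floxed allele was recombined in the early embryo by EIIa-Cre and then passed through the germ line in matings with WT animals, so that the mutant gene is present in forebrain and cerebellum alike and is driven by the *Tbp* promoter. The knock-in forebrain is therefore not a tissue free of the mutant protein. The labels give 3 to 4 mice per genotype. Whether the sequenced mice carry 1 or 2 mutant alleles is not given in the sources used here.

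The cerebellar cortex is built from few neuron types. Granule cells, the most numerous neurons of the brain, are glutamatergic and receive mossy fibres, and the GABAergic Purkinje cells are the only output of the cortex. Around them lie inhibitory interneurons, unipolar brush cells and Bergmann glia, which are specialized astrocytes. Subsets of these cells keep transcription factors of the hindbrain, such as the engrailed and Zic factors, whereas subsets of forebrain neurons express the Dlx, Emx and *Tbr1* factors. TBP, the TATA-box-binding protein, is part of the TFIID complex that places RNA polymerase II at promoters. Spinocerebellar ataxia 17 (SCA17) is caused by expansion of its polyglutamine tract, and Purkinje cells degenerate in it.

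Because TBP binds the TATA box, the 50 bases before the start site are shown for 8 genes on which the results turn. They were taken from the RefSeq promoters of GRCm38.p6 and are written 5′ to 3′. Capitals mark TATATA, a form of the TATA box, or GGGCGG, the core of the site of the factor *Sp1*, wherever they occur on either strand. *Gabra6* (chr11:42321073-42321122, minus strand), *Cbln3* (chr14:55884257-55884306, minus strand) and *Neurod1* (chr2:79456637-79456686, minus strand) are granule cell genes. *Pcp2* (chr8:3625548-3625597, minus strand), *Homer3* (chr8:70282949-70282998, plus strand) and *Inpp5a* (chr7:139389059-139389108, plus strand) are Purkinje cell genes. *Fam163b* (chr2:27142478-27142527, minus strand) and the microglial gene *Cd68* (chr11:69666171-69666220, minus strand) had the smallest p-values for a changed region difference. *Pcp2* has 4 promoters in the table and *Inpp5a* has 2, and the farthest upstream is shown.
Gabra6: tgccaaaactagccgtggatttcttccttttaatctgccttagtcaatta
Cbln3: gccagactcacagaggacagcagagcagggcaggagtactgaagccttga
Neurod1: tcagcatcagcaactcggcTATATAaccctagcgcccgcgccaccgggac
Pcp2: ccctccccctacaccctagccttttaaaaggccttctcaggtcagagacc
Homer3: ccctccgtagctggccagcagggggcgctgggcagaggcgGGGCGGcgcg
Inpp5a: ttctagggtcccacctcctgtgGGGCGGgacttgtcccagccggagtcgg
Fam163b: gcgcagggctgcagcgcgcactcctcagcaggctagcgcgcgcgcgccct
Cd68: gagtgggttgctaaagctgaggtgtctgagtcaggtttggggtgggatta

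TATAAA or TATATA lay within the 50 bases before the start, on either strand, in 2.51% of the 15841 promoters of the tested genes that could be matched by symbol (12406 of 16840 symbols). The share was 4.5% of 755 promoters of the genes called cerebellar below (577 of 882 symbols) and 6.12% of 1487 promoters of the genes called forebrain (1150 of 1676 symbols). GGGCGG lay within the 250 bases before the start in 54.0%, 42.9% and 42.0% of the same promoters. Of the 22 promoters of the 13 Purkinje cell genes that could be matched, 0 held a TATA motif and 6 held GGGCGG. A match is a string of letters, and its absence says nothing of whether TBP acts there.

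Library totals lay between 10639110 and 17431284 counts, with knock-in cerebellum at 15695641 to 17431284, knock-in striatum at 13668261 to 15096370 and knock-in prefrontal cortex at 10639110 to 16737744. Levels are given in CPM, a library's counts scaled to a common total, and a region difference is the log2 fold difference of cerebellum minus the mean of both forebrain regions. *Tbp* was at 52.2, 54.3, 48.5 and 56.6 CPM in the 4 knock-in cerebellar libraries and at 60.9, 52.5 and 62.0 in the WT ones. The knock-in changes the sequence of *Tbp*, so its level is no check of the labels. Some libraries stood apart by the RNA of neighbouring tissue. The 9 choroid plexus genes summed to 10960 CPM in knock-in cerebellum 3 and 4197 in WT cerebellum 1, against 258 to 343 in the other cerebellar libraries, and the striatal libraries held 3108 to 17590. Of 6 olfactory bulb genes 5 were tested, and they summed to 435 CPM in WT prefrontal cortex 3. Knock-in cerebellum 2 held some forebrain genes above the other knock-in cerebella, with *Crym* at 0.113, 16.7, 0.280 and 0.363 CPM over the 4 libraries. The striatal projection neuron genes summed higher in knock-in cerebellum 1 (651.5 CPM) than in knock-in cerebellum 2 (593.6). Values without knock-in cerebellum 3, WT cerebellum 1 and WT prefrontal cortex 3 are given for some results only and are called values without the 3 libraries. Other counts moved too, such as oligodendrocyte genes lower in the knock-in cerebellum, which were 6 with all libraries and 4 without the 3.

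In knock-in mice the cerebellum and the forebrain differed in 57.4% of the genes tested. With the edgeR quasi-likelihood test and a Benjamini-Hochberg adjusted p under 0.05, 4874 genes were higher in the cerebellum (28.9% of those tested) and 4795 were lower (28.5%). By at least 3-fold, 835 genes were higher (4.96%) and 1496 were lower (8.88%). In 742 of the 835 and 1177 of the 1496 genes, every knock-in cerebellar library lay on one side of all 6 knock-in forebrain libraries, which over all tested genes was so for 37.1%. These p-values measure the spread between the libraries, which the labels list as separate samples. In bulk tissue a lower level can come from fewer cells of a type or from less RNA per cell, and these cannot be told apart.

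The genes with the largest differences toward the knock-in cerebellum included genes of granule and Purkinje cells. *Gabra6*, the α6 subunit of the GABA-A receptor made by granule cells, was at 1398, 1270, 1225 and 1312 CPM in the cerebellum, at 0.135, 0.440 and 0.198 in the striatum and at 1.94, 1.80 and 1.35 in the prefrontal cortex. Its region difference was 10.91 (standard error 0.23, adjusted p = 3.18e-15). *Cbln3*, a cerebellin secreted by granule cells, was at 1024, 1202, 1136 and 1171 CPM in the cerebellum and at no more than 2.18 CPM in the forebrain, a region difference of 10.12 (standard error 0.30, adjusted p = 4.55e-14). Both genes were thus separated from every forebrain library by a wide gap. Several of the largest differences were lower bounds, since no knock-in forebrain library held more than 3 counts of the gene: counted against a floor of 3 counts per library, *Lhx1*, a transcription factor of Purkinje cells, was at least 294-fold higher, *Dao*, D-amino acid oxidase, at least 253-fold, and *Nrk*, a kinase, at least 178-fold.

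Those with the largest differences toward the knock-in forebrain included genes of striatal and cortical neurons. *Drd1*, the dopamine D1 receptor of striatal projection neurons, was at 1.01, 0.942, 0.336 and 0.302 CPM in the cerebellum, at 277, 406 and 322 in the striatum and at 37.8, 71.8 and 15.7 in the prefrontal cortex, a region difference of -7.48 (standard error 0.54, adjusted p = 3.41e-09). Every cerebellar library was thus below every forebrain library. *Ddn*, a dendritic protein, had -8.13, the potassium channel subunit *Kcnv1* -8.60 and the signalling regulator *Rgs14* -8.14 on the same scale. Against the floor of 3 counts per library *Dlx5* was at least 46.2-fold lower in the cerebellum and *Dlx2* at least 30.9-fold, both being factors of forebrain interneurons. Of abundant genes, *Gng7*, a G protein subunit, had -4.18, the small GTPase *Arf3* -2.20 and the motor protein *Kif5a* -1.61.

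**Figure D1:**
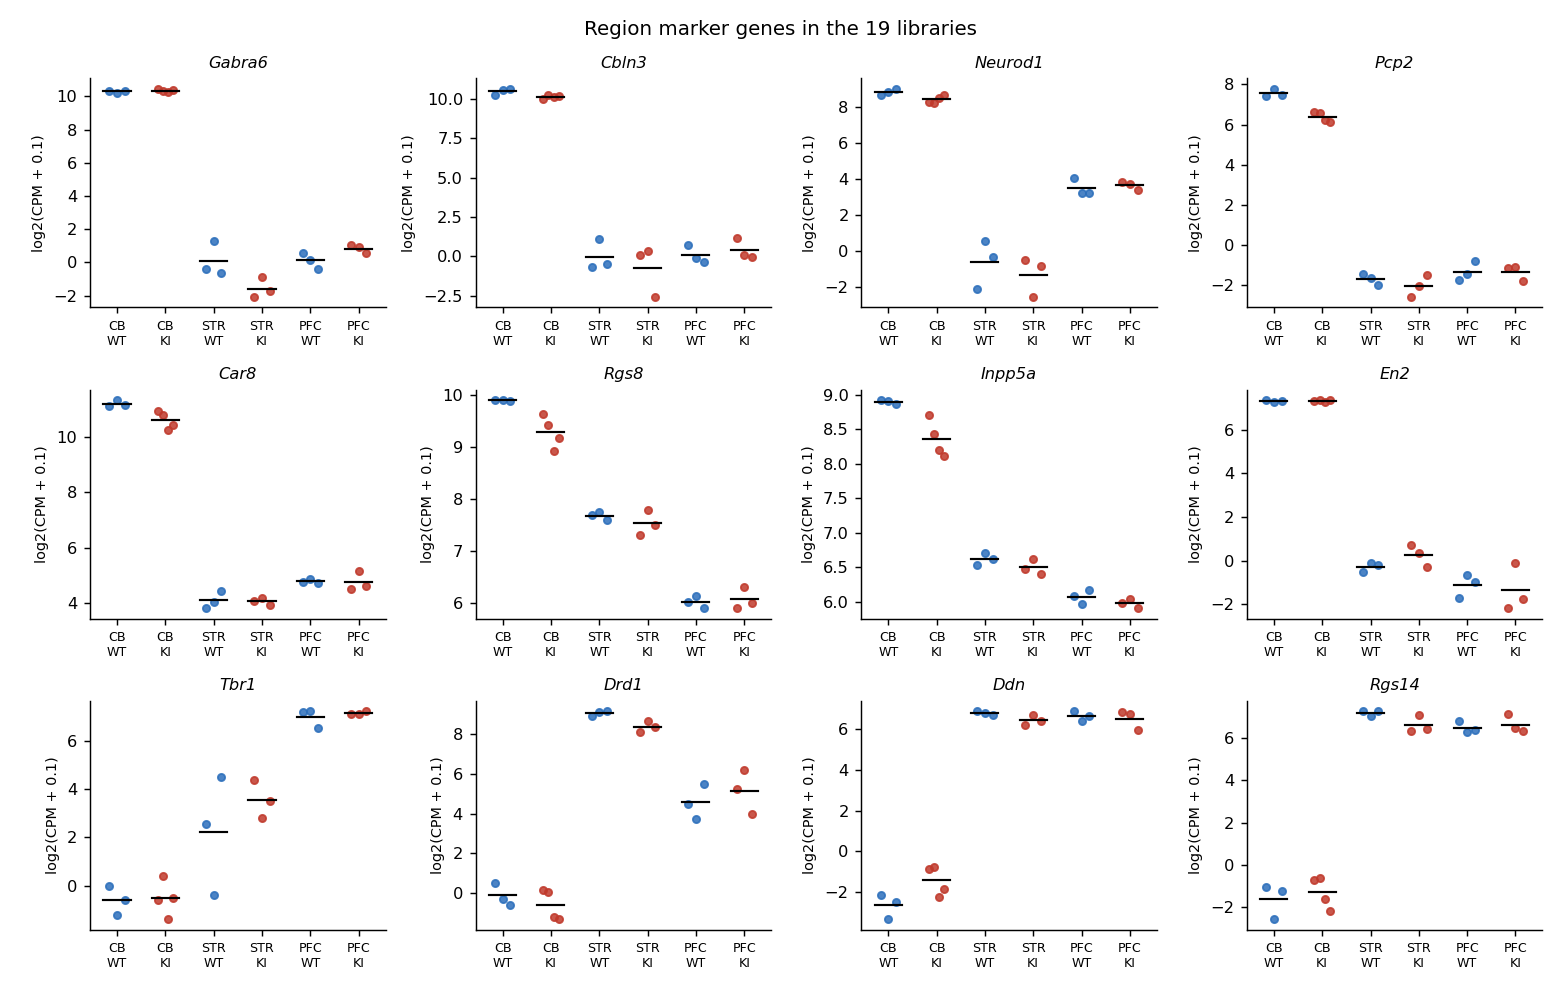
Levels of 12 region marker genes, 1 panel a gene, as log2(CPM + 0.1) in each of the 19 libraries. Points are libraries (blue WT, red knock-in), lines are group means, CB is cerebellum, STR striatum and PFC prefrontal cortex. Gabra6, Cbln3 and Pcp2 were far higher in every cerebellar library of both genotypes, while Drd1, Ddn and Rgs14 lay far lower there.

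All 18 granule cell genes were higher in the knock-in cerebellum than in the knock-in forebrain, 16 of them by at least 3-fold, with a median difference of 5.06. *Neurod1*, a factor that drives granule cell differentiation, was at 309, 294, 359 and 393 CPM in the cerebellum, 0.0733 to 0.608 in the striatum and 10.3 to 14.2 in the prefrontal cortex. Its difference was 9.73 relative to striatum and 4.73 relative to prefrontal cortex, so that the 2 forebrain regions did not give the same distance.

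Of 25 Purkinje cell genes 23 were higher, 19 by at least 3-fold, with a median of 2.39, and *Pcp4* and *Stac2* did not pass the test. *Pcp2*, a modulator of G protein signalling made almost only by Purkinje cells, was at 98.3, 95.6, 76.1 and 69.3 CPM in the cerebellum and at 0.0676 to 0.264 in the striatum and 0.194 to 0.375 in the prefrontal cortex, a region difference of 8.49 (standard error 0.19, adjusted p = 3.27e-15). *Car8*, which binds the IP3 receptor, was at 1934, 1759, 1219 and 1386 CPM in the cerebellum and differed by 6.20 (standard error 0.16, adjusted p = 1.62e-14). Genes of this list that are also used by forebrain neurons lay nearer to 0: the calcium buffer *Calb1* differed by 2.21, the IP3 receptor *Itpr1* by 1.36 and the IP3 phosphatase *Inpp5a* by 2.14.

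The smaller cell types of the cerebellum were present as well. Of 12 cerebellar interneuron genes 8 were higher and 1 was lower, of 10 Bergmann glia genes 9 were higher and 1 was lower, and of 6 unipolar brush cell genes 5 were higher. *Gdf10*, made by Bergmann glia, differed by 4.08 (standard error 0.16, adjusted p = 1.59e-12). *Kit*, made by molecular layer interneurons, differed by 2.63 (standard error 0.12, adjusted p = 7.40e-12). Of 24 hindbrain and cerebellar transcription factors 22 were higher and 0 lower, with a median of 5.87. *En2*, which patterns the cerebellum, was at 160, 163, 156 and 165 CPM in the knock-in cerebellum and differed by 7.92 (standard error 0.19, adjusted p = 6.66e-15).

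Forebrain lists were low in the knock-in cerebellum, with exceptions in the cortical ones. Of 26 forebrain transcription factors 23 were lower, with a median of -6.22, while *Neurod2* and *Bhlhe22* were higher. Both were higher than in the striatum, by 4.20 and 4.19, whereas the differences of 0.37 and 0.55 relative to the prefrontal cortex did not pass (adjusted p = 0.442 and 0.119). All 16 striatal projection neuron genes were lower than the average of both regions, with a median of -5.10. The dopamine receptor *Drd1* differed by -8.98 against striatum and -5.99 against prefrontal cortex. Against the prefrontal cortex alone, *Ppp1r1b* differed by -0.35 (adjusted p = 0.437) and *Penk* by -0.36 (adjusted p = 0.526), and neither passed. Of 15 cortical projection neuron genes 11 were lower and 1, *Nptx1*, was higher. *Slc17a7*, the vesicular glutamate transporter that granule cells share with cortical neurons, was 2.47 above the striatum and -1.52 from the prefrontal cortex, opposite signs that the average of both regions hid. Of the 835 genes at least 3-fold higher than the average of both regions, 576 were also 3-fold higher than each region. Of the 1496 that were 3-fold lower, 1080 were so against each region, 204 against the striatum but not the prefrontal cortex and 206 the reverse.

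For 12 pairs of related genes the values of both members were set side by side. The pairs were picked for their known regional use, so that the opposite directions of their members describe the choice and are no finding. Per kilobase of exon, the NMDA receptor subunit *Grin2c* was at 36.4 CPM in knock-in cerebellum, 5.45 in striatum and 5.92 in prefrontal cortex. Its relative *Grin2b* was at 0.290, 6.94 and 8.71. Other pairs were the glutamate transporter *Slc1a6* of Purkinje cells (5.13 on the log2 scale) and *Slc1a2* of astrocytes (-1.69), and the phospholipases *Plcb4* (2.96) and *Plcb1* (-1.46). In the pair *Neurod1* and *Neurod6* the second, lower against the average of both regions, differed by 0.42 against striatum (adjusted p = 0.508) and by -3.58 against prefrontal cortex.

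Families of receptors and channels held members of both directions. Beside the 28.9% higher and 28.5% lower among all tested genes, their shares are not read as particular to them. Of 24 glutamate receptor genes 8 were higher and 11 lower in the knock-in cerebellum, of 13 GABA-A receptor subunits 5 were higher and 8 lower, of 24 voltage-gated potassium channel genes 8 were higher and 11 lower, and of 32 calcium-handling genes 16 were higher and 11 lower. Of 12 genes of RNA polymerase II and TFIID 8 were higher and 0 lower, with a median of 0.504 in knock-in and 0.454 in WT mice. *Tbp* itself differed by 0.51 in knock-in and 0.52 in WT mice.

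Of the genes of other brain cells, all 16 microglial genes were lower in the knock-in cerebellum (median -1.40). Of 12 oligodendrocyte genes 6 were lower, and of 10 endothelial and pericyte genes 3, a share near the 28.5% of all tested genes, while 6 of 10 astrocyte genes were higher and 1 lower. Of 9 choroid plexus genes 1 was higher and 0 were lower, but without the 3 libraries 1 was higher and 8 were lower (median -4.00), knock-in cerebellum 3 being among those left out. Of 6 meningeal genes 4 were higher, and 0 of 5 blood genes passed in either direction. Of 16 genes of medulla and pons 3 were tested. Their part in the region difference of other lists was not tested.

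The same contrast in WT mice gave largely the same genes. Of the 9669 genes called in knock-in mice 8240 were called in the same direction in WT mice and 4 in the opposite one (*Ly6c2*, *Nab2*, *Angpt2* and *Gm12339*). The knock-in call of *Nab2* was lost in 17 of 32 other settings, and *Ly6c2* was at 4.93 CPM in knock-in cerebellum 2 against at most 0.225 in the other 3. By at least 3-fold, 916 genes (5.44%) were higher and 1724 (10.2%) lower in WT mice. Of the genes past 3-fold, 720 were higher in both genotypes, 115 in knock-in mice alone and 196 in WT mice alone, and 1326 were lower in both, 170 in knock-in mice alone and 398 in WT mice alone. Being past 3-fold in 1 genotype alone does not show a difference: by the test of the change given below, 1 of the 115, 1 of the 196, 0 of the 170 and 5 of the 398 genes passed. Across the 16841 genes, which are not independent, the differences of both genotypes had the same sign in 88.4% and correlated with Pearson's r = 0.932 and Spearman's rho = 0.909.

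**Figure D2:**
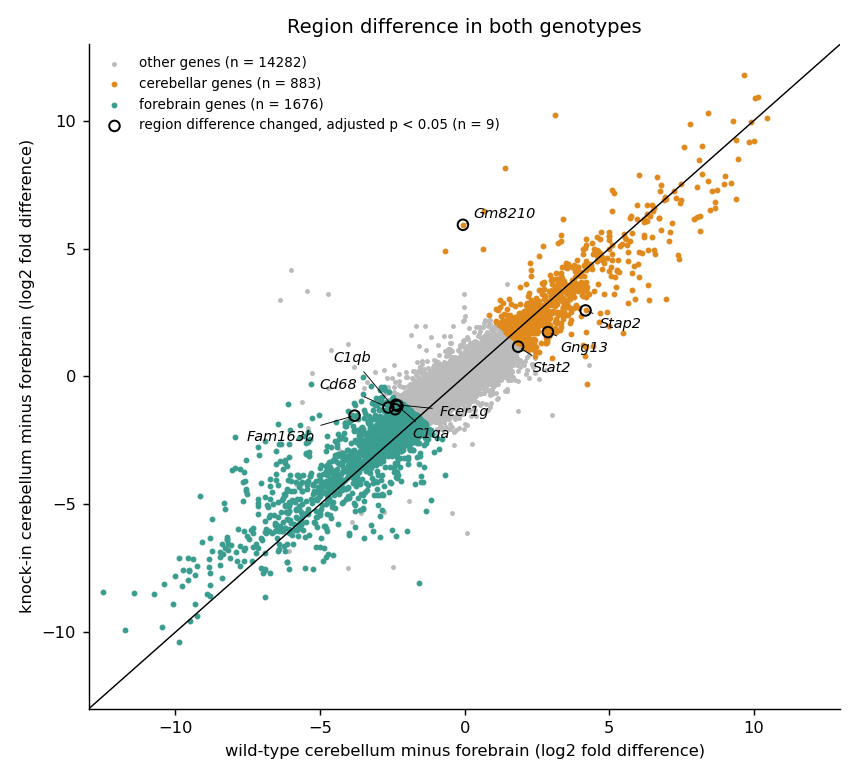
Region difference (log2, cerebellum minus forebrain) of each of the 16841 tested genes in WT mice (x axis) and knock-in mice (y axis), with the line of equal values. Orange and green points are the 883 cerebellar and 1676 forebrain genes chosen over both genotypes, and circles mark the 9 genes whose difference changed. Most genes lie along the line.

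Whether the region difference itself changed was tested as the knock-in difference minus the WT difference. It was larger on the signed scale for 6 genes (0.0356% of those tested) and smaller for 3 (0.0178%). With prefrontal cortex and striatum of 1 number taken as 1 mouse (limma voom with an estimated correlation of 0.17) the counts were 3 and 0. The median standard error of a change was 0.211 on the log2 scale, and 0.134 for the 8655 genes at 20 CPM or more. At an unadjusted p under 0.05 the count was 1205 genes (7.16%), 641 with a larger and 564 with a smaller difference. DESeq2 called 47 and 41 genes, among them all 9.

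By their medians, the genes that set the regions apart lay closer together in knock-in mice. Over both genotypes 883 genes were at least 3-fold higher (5.24%, called cerebellar genes) and 1676 at least 3-fold lower in the cerebellum (9.95%, called forebrain genes). The mean of both genotypes chose them, so their size is no finding. With 4 knock-in and 3 WT cerebella the choice is not wholly independent of the change, and the size of that dependence was not measured. Their median difference was 2.36 in knock-in and 2.53 in WT mice for cerebellar genes, and -2.54 and -2.84 for forebrain genes. The median change was -0.144 for cerebellar genes, 539 of 883 (61.0%) being below 0 against 47.7% of all tested genes. For forebrain genes it was 0.309, with 1190 of 1676 (71.0%) above 0. These are descriptions with no test. The spread of the median change, taken from the medians of the replicate libraries, was 0.14 for cerebellar and 0.108 for forebrain genes. The median change of cerebellar genes was thus about as large as its spread. Leaving out 1 library at a time, the first median lay between -0.224 (without WT prefrontal cortex 3) and -0.0715 (without knock-in striatum 1) and the second between 0.218 (without knock-in cerebellum 2) and 0.451 (without WT cerebellum 1). The side of 0 was kept in each case, while single libraries moved the first by more than 1.5 times, and without the 3 libraries the medians were -0.245 and 0.389.

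The median knock-in effect on cerebellar genes was -0.204 in the cerebellum and -0.0432 in the forebrain, and that on forebrain genes was 0.209 in the cerebellum and -0.0802 in the forebrain. Taken apart, the forebrain genes had a median of -0.145 for striatum and -0.0323 for prefrontal cortex. Restricted to genes with at least 10 CPM also in the lower region, the median change was -0.131 for 251 cerebellar genes (66.9% below 0) and 0.191 for 257 forebrain genes (79.0% above 0).

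As a share of the RNA, cerebellar genes took 5.71%, 5.80%, 5.68% and 5.93% of the counts of the 4 knock-in cerebella, on average 5.78% ± 0.114 (SD, n = 4). In WT cerebellum they took 6.36%, 6.96% and 6.90%, or 6.74% ± 0.327 (SD, n = 3), so that every knock-in library was below every WT library. The ratio of the 2 means was 0.857 (standard error 0.0449), and 0.832 to 0.870 with 1 library left out. Forebrain genes took 1.40% ± 0.0677 (SD, n = 4) of the counts of knock-in and 1.27% ± 0.0536 (SD, n = 3) of WT cerebellum, with libraries at 1.32% to 1.48% and 1.23% to 1.33%, which overlap. In the striatum the forebrain genes took 8.40%, 10.1% and 8.55% in knock-in and 10.6% to 10.9% in WT mice, so that the knock-in striata too lay below the WT ones. The striatal projection neuron genes summed to 8475 to 11760 CPM in knock-in and 14490 to 17010 in WT striatum. In 11 of these 16 genes every knock-in striatum was below every WT striatum, against 8.46% of all tested genes. Their median knock-in effect was -0.637 for striatum and 0.506 for prefrontal cortex, which the average of both regions does not show. In the prefrontal cortex they summed to 1319, 1976 and 615.5 CPM in knock-in and 823.7, 787.1 and 1455 in WT libraries, which overlap. There the genotypes were separated in 0 of the 16 genes, so the 0.506 is not read as an effect of genotype.

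**Figure D3:**
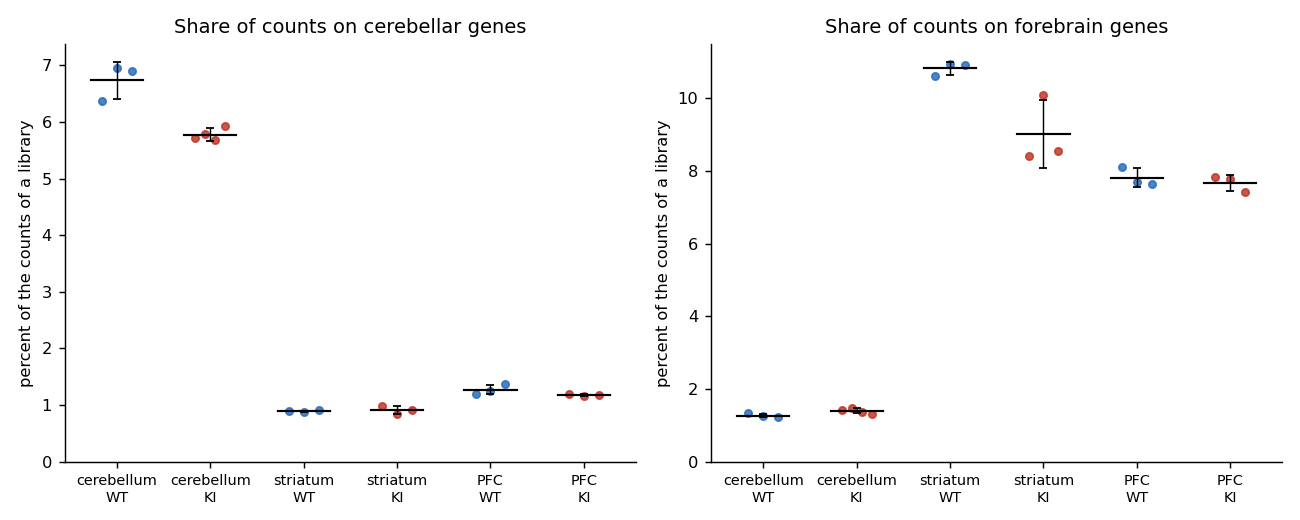
Percent of the counts of each library on the 883 cerebellar genes (left) and the 1676 forebrain genes (right), by region and genotype. Points are libraries and bars are means with SD. The 4 knock-in cerebella lie between 5.68% and 5.93% for cerebellar genes, below the 3 WT cerebella at 6.36% to 6.96%.

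Some genes weighed more than others in the lower share. The share was lower in knock-in than in WT cerebellum for 635 of the 883 genes and higher for 248. The falls summed to -1.08 and the rises to 0.123 percentage points, for a net difference of -0.961. The 10 genes with the most negative differences, picked for that, made up 35.9% of the net difference. *Car8* came first, from 0.240% of the counts of WT cerebellum to 0.164% in knock-in cerebellum. Then followed *Calb1* (-0.0585 points), the neuronal regeneration gene *Nrep* (-0.0495), *Cbln3* (-0.0320), the G protein regulator *Rgs8* (-0.0316), *Chn2* (-0.0283), *Dner* (-0.0195), *Hpcal1* (-0.0175), the cytokine receptor gene *Il20rb* (-0.0158) and *Sbk1* (-0.0157). Of the 10, *Car8*, *Calb1*, *Rgs8* and *Dner* are in the Purkinje cell list and *Cbln3* and *Chn2* in the granule cell list.

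Most Purkinje cell genes had a smaller region difference in knock-in than in WT mice. Of the 25, 22 had a change below 0 (88.0%, against 47.7% of all tested genes), with a median of -0.288; 9 passed at an unadjusted p under 0.05 and 1, *Gng13*, after adjustment. In 15 of the 25 every knock-in cerebellum lay below every WT cerebellum, and in 0 above, whereas over all tested genes this was so for 6.47% (below) and 5.82% (above). Their median knock-in effect was -0.401 in the cerebellum and -0.0847 in the forebrain. The list holds *Inpp5a*, which the study picked from these samples, so that it is not independent evidence of a direction.

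The values of single Purkinje cell genes show the size of the gap. *Pcp2* was at 84.8 ± 14.3 CPM (SD, n = 4) in knock-in cerebellum and at 169, 220 and 179 in the 3 WT cerebella, and its region difference was 9.45 in WT mice, a change of -0.96 (unadjusted p = 0.0422, adjusted p = 0.689). *Rgs8* was at 787, 685, 486 and 576 CPM in knock-in and 953, 952 and 936 in WT cerebellum, with a change of -0.54 (adjusted p = 0.469). *Inpp5a* was at 418, 344, 293 and 278 CPM in knock-in and 485, 478 and 465 in WT cerebellum. All 4 knock-in cerebella were below the WT ones for these 3 genes. The region difference of *Inpp5a* was 2.14 in knock-in and 2.55 in WT mice, a change of -0.40 (standard error 0.14, adjusted p = 0.487), so it stayed a cerebellum-enriched gene and the change did not pass. *Homer3*, a postsynaptic scaffold of Purkinje cells, changed by -0.56 (adjusted p = 0.469).

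The summed level of the 25 Purkinje cell genes was 12870, 11540, 9583 and 9531 CPM in the 4 knock-in cerebella and 15240, 15440 and 15020 in the WT ones. *Aldoc*, which Bergmann glia and other astrocytes also express and which is in the astrocyte list too, was at 2198 to 3086 CPM in knock-in and 3865 to 4324 in WT cerebellum. Without it the sums were 9788, 8636, 7171 and 7333 in knock-in and 10920, 11440 and 11150 in WT cerebellum, which again did not overlap. The 10 astrocyte genes, *Aldoc* included, summed to 6791 to 8221 CPM in knock-in and 8567 to 8779 in WT cerebellum. Only 1 of the 10, *Aldoc*, had every knock-in cerebellum below every WT cerebellum, against 6.47% of all tested genes. The median knock-in effect of the 10 genes in the cerebellum was 0.135, so the lower sum is not read as a fall of the list. The summed level of the 18 granule cell genes was 6109 to 6984 CPM in knock-in and 6593 to 7789 in WT cerebellum. The median change of the granule cell genes was 0.035, with 9 below and 9 above 0, but without the 3 libraries it was -0.283, with 14 of 18 below 0. The median change of the Purkinje cell genes without these libraries was -0.336, with 21 of 25 below 0. No difference between both cell types is therefore read from these medians, and it was not tested. *Gabra6* was at 1264, 1198 and 1298 CPM in WT cerebellum, which overlaps the knock-in range, and its change was 0.76 (adjusted p = 0.733).

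The region difference of the cerebellar transcription factors was near that of WT mice, at 5.87 against 6.17. Their median change was -0.167 with 14 of 24 below 0, and 1 of 24 passed at an unadjusted p under 0.05. Every knock-in cerebellum was below every WT cerebellum for 0 of the 24 and above for 2. *En2* was at 164, 155 and 162 CPM in WT cerebellum, and its region difference was 7.92 in knock-in and 8.22 in WT mice.

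**Figure D4:**
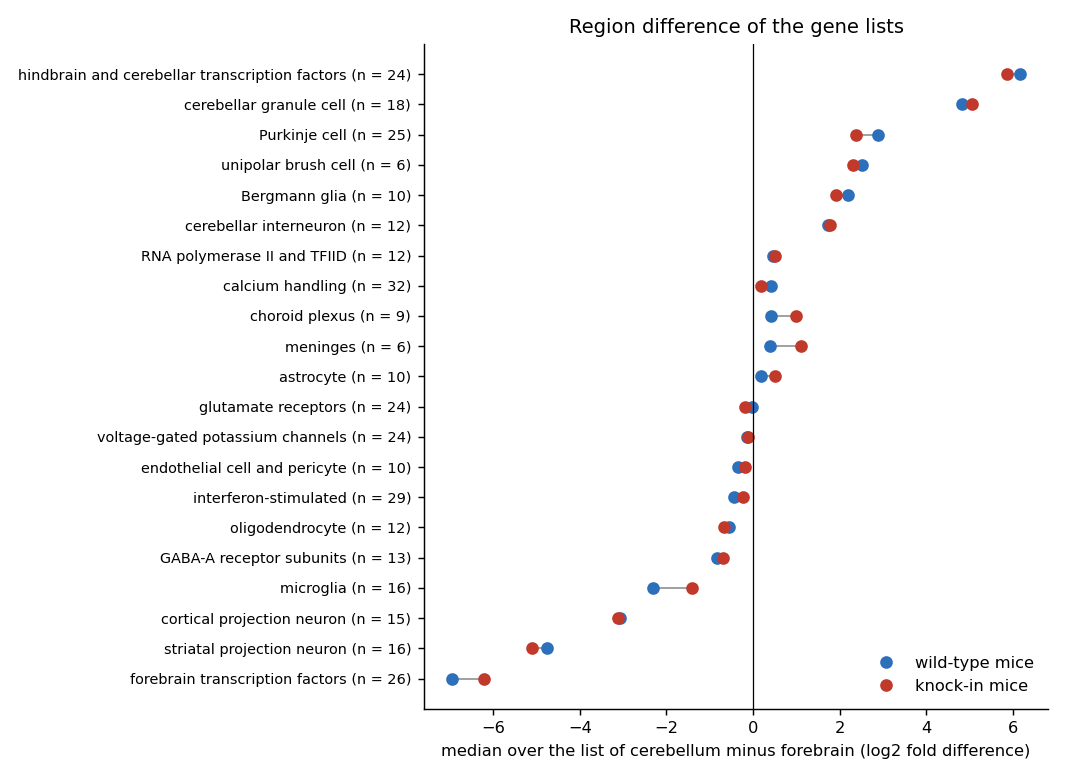
Median region difference (log2, cerebellum minus forebrain) of the gene lists in WT (blue) and knock-in mice (red), with the number of tested genes. Medulla and pons, olfactory bulb and blood, with few tested genes, are not shown. The points of a list lie close together for most lists, less so for the microglia, forebrain transcription factors, choroid plexus and meninges. The microglial list was at -2.31 in WT and -1.40 in knock-in mice, and the Purkinje cell list at 2.88 and 2.39.

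Microglial genes, lower in the cerebellum than in the forebrain of both genotypes, were less so in knock-in mice. The median region difference was -2.31 in WT and -1.40 in knock-in mice, the median change was 0.852 and all 16 changes were above 0. At an unadjusted p under 0.05 there were 15, against 7.16% of all tested genes, and *Cd68*, *C1qa* and *C1qb* passed after adjustment. The median knock-in effect was 0.897 in the cerebellum and 0.0375 in the forebrain, and in 14 of 16 genes every knock-in cerebellum was above every WT cerebellum, against 5.82% of all tested genes. Summed, the list was at 347 to 463 CPM in knock-in and 216 to 224 in WT cerebellum, against 1080 to 1258 in knock-in striatum and 846 to 1059 in knock-in prefrontal cortex. Without the 3 libraries the median change was 0.878, and all 16 were again above 0. The part of the higher microglial level, or of the choroid plexus RNA above, in the values of other genes was not tested. The homeostatic microglial gene *P2ry12* was at 12.6 to 17.1 CPM in knock-in and 11.5 to 14.4 in WT cerebellum, and *Cx3cr1* at 18.9, 20.01, 18.3 and 19.8 in the knock-in and 11.4 to 14.6 in the WT libraries. The genotypes overlapped for *P2ry12* and did not for *Cx3cr1*.

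Interferon-stimulated genes lay higher in knock-in than in WT mice in every region. The genotypes were separated in this direction for 27 of 29 genes in the cerebellum (5.82% of all tested genes), for 29 in the striatum (5.65%) and for 24 in the prefrontal cortex (4.38%). The median knock-in effect was 2.19 in the cerebellum and 1.79 in the forebrain. Between the knock-in regions, 22 of the 29 did not pass, 3 were higher in the cerebellum and 4 were higher in the forebrain. *Irf7*, the factor that amplifies the interferon response, was at 20.5, 31.8, 24.8 and 20.6 CPM in knock-in and 4.37, 2.10 and 1.62 in WT cerebellum, with a region difference of -0.09 in knock-in mice.

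Of the single genes with a changed difference, *Fam163b* had the smallest p. It was at 37.9, 52.9, 39.4 and 37.1 CPM in knock-in and 12.8, 10.0 and 11.1 in WT cerebellum, at 78.7 to 86.5 in knock-in and 129 to 140 in WT striatum, and at 157 to 216 and 147 to 237 in prefrontal cortex. Every knock-in cerebellum was above every WT one. Its region difference was -1.53 in knock-in and -3.81 in WT mice, a change of 2.27 (standard error 0.21, adjusted p = 8.00e-05), made of a knock-in effect of 1.88 in the cerebellum and -0.39 in the forebrain. It passed with each of the 19 libraries left out and in all 12 other settings.

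The other 5 genes with a higher change were 4 genes of microglia and related cells and 1 pseudogene. The lysosomal glycoprotein gene *Cd68* was at 8.89, 7.82, 7.96 and 8.89 CPM in knock-in and 2.83, 4.00 and 4.37 in WT cerebellum, a change of 1.42 (adjusted p = 0.00320). The complement gene *C1qa* was at 21.2, 18.6, 16.2 and 16.3 and 7.13, 7.21 and 8.01 CPM, a change of 1.17 (adjusted p = 0.0115). Its partner *C1qb* was at 52.0, 45.6, 33.2 and 39.2 and 18.6, 19.5 and 19.7, a change of 1.12 (adjusted p = 0.0339). The 2 cerebellar groups did not overlap for any of these 3 genes. *Fcer1g*, the common γ chain of Fc receptors, was at 7.66, 8.37, 6.33 and 6.59 and 2.57, 3.34 and 2.83 CPM, a change of 1.26 (adjusted p = 0.0300). *Gm8210*, a pseudogene whose counts may come from related genes, was at 0.665 to 1.34 CPM in knock-in and 1.61 to 2.43 in WT cerebellum. It was at 1.09 to 2.29 CPM in WT prefrontal cortex and 1.47 to 3.47 in WT striatum. Since it had 0 counts in 5 of 6 knock-in forebrain libraries, no fold is given for its change (adjusted p = 0.0106). The gene was thus lower in knock-in mice in each region, and its higher change reflects the near absence in the knock-in forebrain. *Cd68* passed with each library left out, while *C1qa* and *Gm8210* did not pass without WT cerebellum 2. *C1qb* passed in 4 of the 19 fits with 1 library left out, those without knock-in cerebellum 3, knock-in prefrontal cortex 3 or knock-in striatum 2 or 3. *Fcer1g* passed in the same 4 fits and without WT prefrontal cortex 2. With prefrontal cortex and striatum of 1 number as 1 mouse, *Fam163b*, *Cd68* and *Gm8210* passed and the other 6 genes did not.

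The 3 genes with a lower change were *Gng13*, *Stap2* and *Stat2*. *Gng13*, a G protein γ subunit of Purkinje cells, was at 35.0, 40.5, 34.7 and 28.8 CPM in knock-in and 59.6, 87.3 and 76.4 in WT cerebellum, with a region difference of 1.73 and 2.88 and a change of -1.15 (adjusted p = 0.0300). The adaptor gene *Stap2* was at 13.8, 21.1, 23.3 and 23.9 and 42.5, 74.6 and 62.5 CPM, with differences of 2.58 and 4.18 and a change of -1.60 (adjusted p = 0.0300). Both were lower in every knock-in cerebellum than in any WT cerebellum. *Stat2*, which carries the interferon signal, was at 79.1, 94.1, 90.2 and 102 CPM in knock-in and 97.1, 111 and 111 in WT cerebellum, which overlap, while it was 37.2 to 38.9 against 24.7 to 29.7 in the striatum and 41.0 to 47.8 against 31.2 to 33.7 in the prefrontal cortex. Its change of -0.69 (adjusted p = 0.0300) thus combined higher knock-in levels in both forebrain regions with cerebellar levels that leaned lower but overlapped. With 1 library left out, *Gng13* passed in 8 of 19 fits, namely without knock-in cerebellum 2, WT cerebellum 1, knock-in prefrontal cortex 1 or 3, WT prefrontal cortex 3 or any knock-in striatum. *Stap2* passed in 7, namely without any of the knock-in cerebella, WT cerebellum 1, WT prefrontal cortex 1 or knock-in striatum 2. *Stat2* passed in 6, namely without knock-in cerebellum 2 or 4, WT cerebellum 1, knock-in prefrontal cortex 3, knock-in striatum 2 or WT striatum 1. In the remaining fits these 3 calls were lost.

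**Figure D5:**
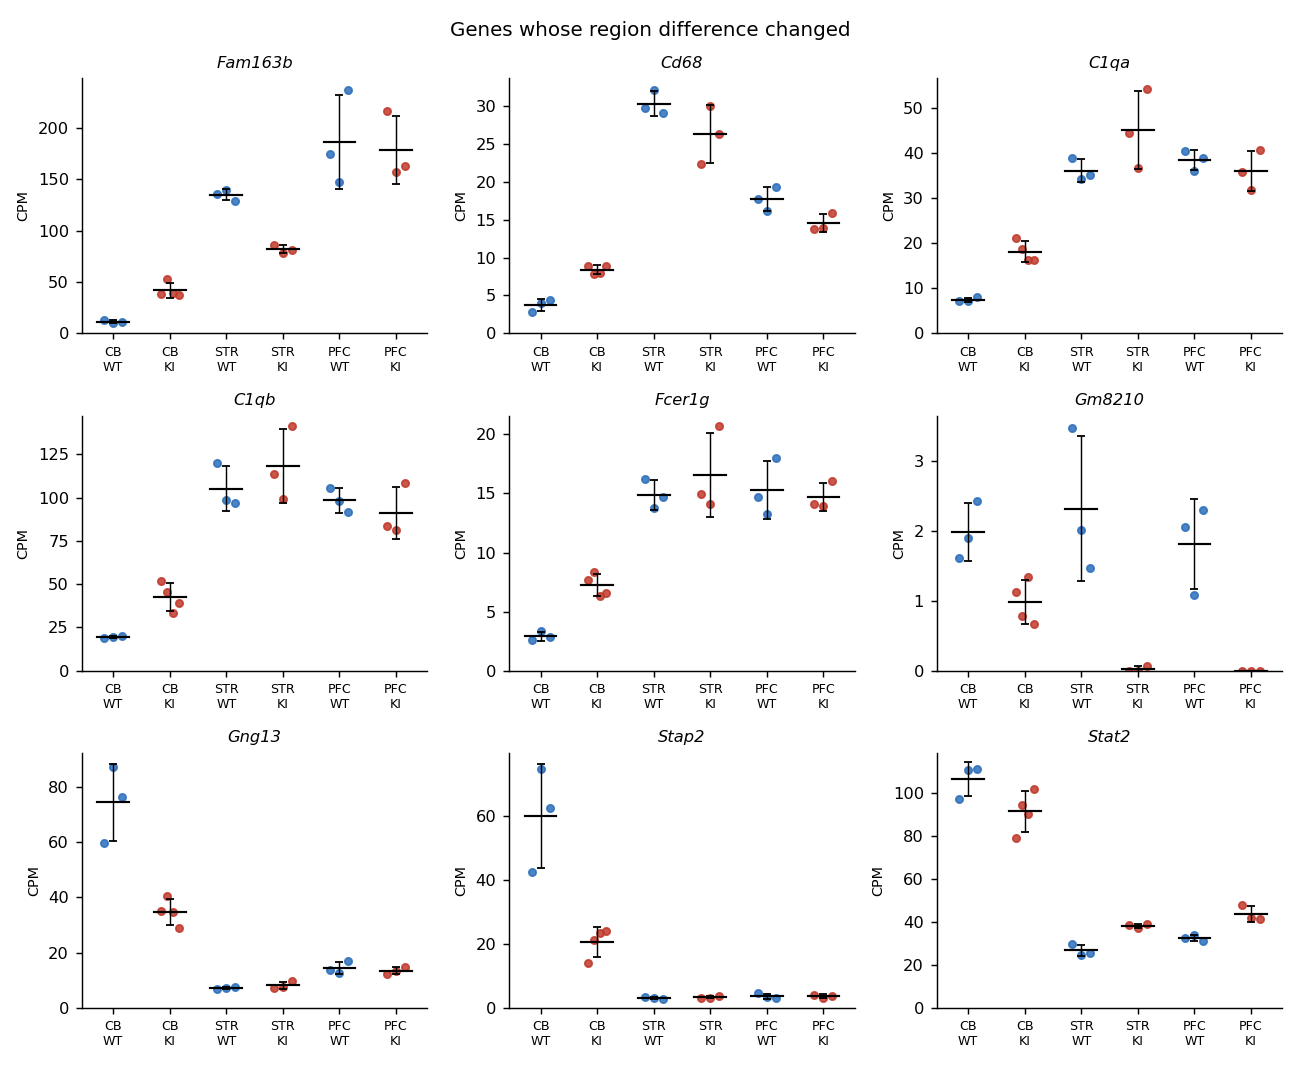
Levels (CPM, linear axis from 0) of the 9 genes whose region difference changed, 1 panel a gene, in the 6 groups. Points are libraries (blue WT, red knock-in), bars are means with SD, CB is cerebellum, STR striatum and PFC prefrontal cortex. For Fam163b the 4 knock-in cerebella lie between 37.1 and 52.9 CPM, above the 3 WT cerebella, and for Gng13 they lie between 28.8 and 40.5 CPM, below them.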

How the data were processed

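Total RNA of cerebellum, striatum and prefrontal cortex was sequenced as SMART-Seq v4 libraries with Nextera XT, a kit that does not mark strand, so reads of overlapping and antisense genes cannot be separated, and reads of near-identical genes are uncertain. The values used are read counts per gene as deposited by the authors, raw and not normalized. The submitters' processing notes name GRCm38.p3, bcl2fastq 2.17.1.14, STAR 2.5.2b, HTSeq and DESeq2 1.10.1, without roles. A normalized table was not used. GENCODE M21 symbols matched 40254 of 41128 identifiers. The labels give the input RNA in 2 ways and do not number the animals.

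Genes passing filterByExpr over the 6 groups (16841, holding 99.9% of the counts) were fitted in 1 edgeR quasi-likelihood model over all 19 libraries (edgeR 4.0.16, R 4.3.3, TMM, 13 residual degrees of freedom), and p-values were adjusted by Benjamini-Hochberg over all tested genes at 0.05. Log2 CPM used a prior count of 2, and a fold against a group at or under 3 counts per library is a bound against 3 counts. Cuffdiff, the test of the study, needs reads and could not be used. Alternatives were DESeq2 1.42.0, other scaling, filters, fold limits and reference regions, replicate blocks, a covariate of *Xist* against Y-linked counts and leaving out each library. A limma 3.58.1 voom block and a fit without 3 libraries were chosen after seeing the data, as were the genes *Il20rb*, *Eomes*, *Nab2*, *Plcb3*, *Ly6c2*, *Angpt2*, *Gm12339*, *Polr2a*, *Crym* and *H2-D1*, the knock-in effect split by forebrain region, the sums without *Aldoc* and members of lists or shares beyond the rule below. The code was tested on simulated data. Results of some genes are not reported here.

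The gene lists, members and comparison were chosen with earlier results of these data known. Genes were named by rule: the 10 with the largest fold in each direction among called genes with 20 CPM or more and no overlap, the 5 most abundant past 3-fold, changed genes, the first 5 of each list and both members of each pair. Deviations of same-numbered prefrontal cortex and striatum libraries correlated in 6 of 6 pairs (0.233 to 0.368), and *Xist* and Y-linked counts matched in 6 of 6. Their numbers were therefore taken to pair the mice, which the labels do not state. Deviations of same-numbered cerebellum and forebrain libraries correlated at -0.104 to 0.163, so the numbers are not shown to pair them. Libraries of different numbers were not compared, so whether the cerebella come from the same mice is not known. The main fit treated all libraries as independent. Replicates of a group differed by more than sampling noise (chi-square per degree of freedom 4.95 to 30 over 21 pairs).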

Additional observations from a re-analysis of the deposited data

Results flagged for a closer look

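Among the 4 knock-in cerebella, 89 values were examined for a sample far from the others by Dixon's ratio of the gap to the range, and 6 were past its 95% critical value, where chance alone gives about 1 in 20. Knock-in cerebellum 1 was high for *Ppp1r17*, a phosphatase inhibitor of Purkinje cells (344 CPM, others 229 to 243, ratio 0.879), and for the factor *Bhlhe22* (ratio 0.859). Knock-in cerebellum 2 was low for *Gabra2*, a GABA-A subunit (ratio 0.851), and high for *Fam163b* (ratio 0.854) and the repressor *Nab2* (ratio 0.834). Knock-in cerebellum 3 was high for the summed choroid plexus genes, at 10960 CPM against 258 to 343 (ratio 0.992).

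The region difference of 9 genes differed between the genotypes by the interaction test of edgeR, with adjusted p = 8.00e-05 for *Fam163b*, 0.00320 for *Cd68*, 0.0115 for *C1qa*, 0.0339 for *C1qb*, 0.0300 for *Fcer1g* and 0.0106 for *Gm8210*, all on the higher side in knock-in mice, and 0.0300 for *Gng13*, 0.0300 for *Stap2* and 0.0300 for *Stat2* on the lower side. Without WT cerebellum 2, *Fam163b* and *Cd68* passed and the other 7 did not, and with the forebrain pairs as 1 mouse 6 of the 9 did not pass.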

How the results depend on the processing

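Of 5183 values of single genes under the alternatives, 5045 kept direction and call, 123 lost the call, 13 gained it and 2 reversed: *Neurod6* against the striatum alone (0.42) and *Slc17a7* against the prefrontal cortex alone (-1.52). Of 537 counts and medians 483 stayed within 1.5 times or the spread. The counts at 3-fold were lower with at least 10 counts in every library: 372 higher and 614 lower in knock-in mice, 429 and 735 in WT mice, 401 and 669 over both, 455 and 693 against the striatum and 391 and 673 against the prefrontal cortex. With no filter 1342 genes were higher over both genotypes. At 2-fold there were 1570 and 2317 in knock-in mice, 1731 higher in WT mice and 1667 and 2550 over both, and at 5-fold 459 and 943, 502 and 1130, and 483 and 1034. The numbers of genes with a changed region difference, higher and lower, were 47 and 41 with DESeq2, 14 and 6 without the 3 libraries, 2 and 0 against the striatum alone, 3 and 0 against the prefrontal cortex alone, and 5 lower with at least 10 counts in every library. With a replicate block of genotype and number they were 1 and 0, with the number alone 4 and 1, and with the voom block of forebrain pairs 3 and 0. The block changed no other count by over 1.5 times. Since the numbers are not shown to pair cerebellum with forebrain, its first 2 forms may not pair mice. The cause of these shifts was not tested.

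Leaving out 1 library, the changed genes were 2 to 9 higher and 0 to 6 lower. The higher count was 2 without WT cerebellum 2 and 9 without WT cerebellum 1. The lower count was 0 without WT cerebellum 2 or 3, knock-in or WT prefrontal cortex 2 or WT striatum 2, 1 without knock-in cerebellum 3, knock-in prefrontal cortex 1, WT prefrontal cortex 1 or 3, knock-in striatum 1 or 3 or WT striatum 1 or 3, 5 without WT cerebellum 1 and 6 without knock-in cerebellum 2 or knock-in striatum 2. Medians for cerebellar and forebrain genes were -0.224 to -0.0715 and 0.218 to 0.451. Depth limits low genes: 16841 of 41128 genes were tested.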

Other observations

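The class I gene *H2-D1* had a region difference of 0.85 in knock-in and 2.23 in WT mice.

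*Polr2a*, the gene of the catalytic subunit of RNA polymerase II, was at 116, 110, 115 and 134 CPM in knock-in and 59.6, 57.6 and 65.1 in WT cerebellum. In the striatum it was at 64.1 to 79.6 and 33.5 to 40.5, and in the prefrontal cortex at 72.6 to 88.0 and 37.2 to 47.1. The genotypes did not overlap in any of the 3 regions, while the region difference was 0.68 in knock-in and 0.62 in WT mice.

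Some genes showed a large cerebellar gap between genotypes without passing the test of the change. *Il20rb* was at 55.0, 71.6, 54.0 and 61.4 CPM in knock-in and 227, 187 and 232 in WT cerebellum, with a change of -0.76 (adjusted p = 0.757). The phospholipase *Plcb3* was at 38.4 to 46.4 and 65.7 to 90.2 CPM, with a change of -0.80 (adjusted p = 0.0613). *Nab2* was at 21.9 to 27.1 and 41.3 to 49.3 CPM, with a region difference of -0.33 in knock-in and 0.66 in WT mice (adjusted p of the change = 0.0838). *Eomes*, the factor of unipolar brush cells, was at 5.10 to 8.56 CPM in knock-in and 10.5 to 39.6 in WT cerebellum, and at 30.0 CPM in WT prefrontal cortex 3, the library with olfactory bulb genes.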
